A study of Homo sapiens with 15 samples.

Results

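Guides against CD4 were compared with no guides in MelJuSo, a human melanoma cell line, in the pair of engineered lines whose recruited activation domain was VP64. The comparison rested on 6 of the 15 RNA-seq libraries of the study, chosen by their labels and not by any measured value. There were 3 libraries (A, B and C) from the line with nanobody-VP64 and CD4 guides, and 3 from the line with nanobody-VP64 and no guides. Both lines carried 5xALFA-dCas12a-VP64, a nuclease-dead Cas12a fused to the VP64 activation domain and to repeats of the ALFA peptide, together with a nanobody that binds the peptide and brings further VP64. Only the first line also held the cassette of 3 guides against CD4. The remaining 9 libraries came from a matching pair with nanobody-p65, with and without the guides, and from a line without guides and without any activation domain. They entered the statistical fit and supplied levels for context. The labels describe 1 line per condition and do not say whether it was a clone or a pool, so the guides and any other difference between the lines cannot be told apart. They do not say whether libraries A, B and C came from separate cultures, so the p-values reflect library-to-library spread alone, which may be technical.

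VP64 is a string of short acidic segments that draws transcription machinery to a promoter when a DNA-binding protein carries it there, and CD4 is a co-receptor of T helper cells. The CD4 protein is a glycoprotein that passes through the endoplasmic reticulum (ER), where new membrane and secreted proteins are folded, given sugar chains and sent on in coated vesicles. Folding enzymes of the ER are kept there by a short retrieval signal at the end of the protein. When unfolded protein builds up, sensors in the ER membrane are known to switch on genes for folding enzymes and for disposal of misfolded chains. The results are given below by these roles first, then for lipids and lysosomes, innate immunity, the cell surface, and growth.

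The depth of the 6 libraries ran from 15643705 to 19680595 expected counts. The first principal component held 62.0% of the variance and separated the libraries with guides from those without, and the second held 11.6%. Replicate B without guides stood apart in short noncoding RNAs, and its counts differed from those of replicate A without guides by a chi-square per degree of freedom of 11.1, against 3.63 for replicates A and C. Defining markers of T cells were at 0 TPM in all 6 libraries (CD3D, CD3E, CD3G and CD2), as was the macrophage gene C1QA. Some other members of these 2 marker lists had reads. The myeloid gene CSF1R was at 4.56 to 8.87 TPM with guides and 3.73 to 8.27 TPM without, and AIF1 and ITGAM were also detected. TRAC, of the T cell list, was at 0.82 to 1.01 TPM with guides and 1.09 to 1.48 TPM without, and PTPRC was detected too. The melanocytic gene SOX10 was clearly present, at 206 to 237 TPM with guides and 142 to 153 TPM without. MLANA was nearly absent, at 0.04 to 0.12 TPM with guides and 0.03 TPM in each library without, and MITF stood at 2.97 to 3.75 TPM with guides and 3.45 to 3.73 TPM without. The cells therefore had some melanocytic markers and lacked others, in both lines.

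The targeted gene set the scale. CD4 (ENSG00000010610, chr12:6786858-6820808, hg38) had 920, 953 and 900 TPM with guides, against 4.09, 3.94 and 4.69 TPM without guides. The groups lay far apart (log2 fold change 7.75, SE 0.15, edgeR adjusted p = 2.95e-20; exact 2-sided permutation test of TPM, p = 0.1, the smallest that 3 against 3 can give). By mean TPM, CD4 was the 170th most abundant gene with guides and the 10167th without. Its rise was only the 9th largest in absolute TPM.

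Many genes overlap another on the opposite strand, among them PTMS, and whether the counting used strand is unknown, so the reads of such partners may be mixed. Of 14961 genes tested, 19.3% were called higher with guides and 21.3% lower at an adjusted p of 0.05. A further limit of 2-fold left 2.36% higher and 0.709% lower. Of 6074 genes called, 4716 had no overlap between the groups in TPM. The separations given below for named genes are thus what most called genes show. The called genes that were higher gained 62000 TPM in sum, and those that were lower lost 53800 TPM (a summed difference of -53800). CD4 held 1.48% of the summed gain, and the 15 genes with the largest gains held 26.0%. The 15 with the largest losses held 28.1% of the summed loss. They include ENSG00000281181, RMRP and RN7SK, with mean TPM differences of -3957, -778 and -360. Those differences rest largely on replicate B of the line without guides, as given below, so the summed loss and this share do so in part.

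Among the 15 largest gains, all but PTMS, GDF15 and CD4 had a log2 fold change under 1. PTMS, which encodes the small acidic protein parathymosin and lies near CD4 on chromosome 12, had the largest gain. It had 2434, 2555 and 2483 TPM with guides, against 527, 519 and 514 TPM without (log2 fold change 2.10, SE 0.055, edgeR adjusted p = 1.73e-17). The groups were separated by a wide gap. CD74, the invariant chain of MHC class II, had 3217, 3810 and 3348 TPM with guides, against 1794, 1775 and 1766 TPM without (0.96, SE 0.066, adjusted p = 2.05e-10). GDF15, a secreted stress cytokine, had 2538, 2692 and 2360 TPM with guides, against 1025, 948 and 1001 TPM without (1.34, SE 0.075, adjusted p = 9.34e-12). All libraries with guides lay above all libraries without in both genes.

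The list of the largest gains went on with metabolic, iron, matrix and cytoskeletal genes. FTH1, the heavy chain of the iron store ferritin, averaged 4275 ± 25.2 TPM with guides and 3056 ± 80.8 TPM without (SD, n = 3 each). SPARC, a collagen-binding matrix protein, had 2617, 2835 and 2734 TPM with guides, against 1499, 1513 and 1539 TPM without (0.87, SE 0.037, adjusted p = 2e-13). The calcium-binding protein S100A6 had 2925, 3105 and 2983 TPM with guides, against 1857, 1816 and 1767 TPM without (0.73, SE 0.051). The groups did not overlap in any of these genes. GAPDH, VIM, LGALS1, EEF1A1 and TMSB10 also ranked in the first 15, with log2 fold changes of only 0.11 to 0.29. LGALS3BP, HLA-B and CD63 completed the set. In the line without an activation domain, the means of VIM (7837 TPM) and EEF1A1 lay above both lines of the pair. Those of CD74 (2757 TPM), GDF15 (1744 TPM), GAPDH and S100A6 lay between the lines. The rest of the 15, among them PTMS (505 TPM), FTH1 (2937 TPM) and SPARC (1196 TPM), had means below both.

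The largest losses were of cytoskeletal, ribosomal, mitochondrial and short noncoding RNAs. ACTB, cytoplasmic beta-actin, had 5586, 5512 and 5280 TPM with guides, against 6691, 7053 and 7183 TPM without (-0.36, SE 0.034, adjusted p = 2.48e-08). ACTG1, the gamma-actin gene, had 1990, 1927 and 1926 TPM with guides, against 2625, 2710 and 2649 TPM without (-0.56, SE 0.035). These are near copies of each other, and reads can be split between them. NPM1, a nucleolar chaperone, had 2695, 2464 and 2671 TPM with guides, against 3361, 3241 and 3380 TPM without (-0.29, SE 0.042, adjusted p = 9.86e-06). BCYRN1, a short brain-type noncoding RNA, had 2739, 2034 and 2575 TPM with guides, against 5041, 5499 and 4434 TPM without (-0.99, SE 0.15). The groups stayed apart in all of these. TUBA1B, JPT1 and MT-ND2 were lower by 0.28 to 0.38 on the log2 scale.

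**Figure D1:**
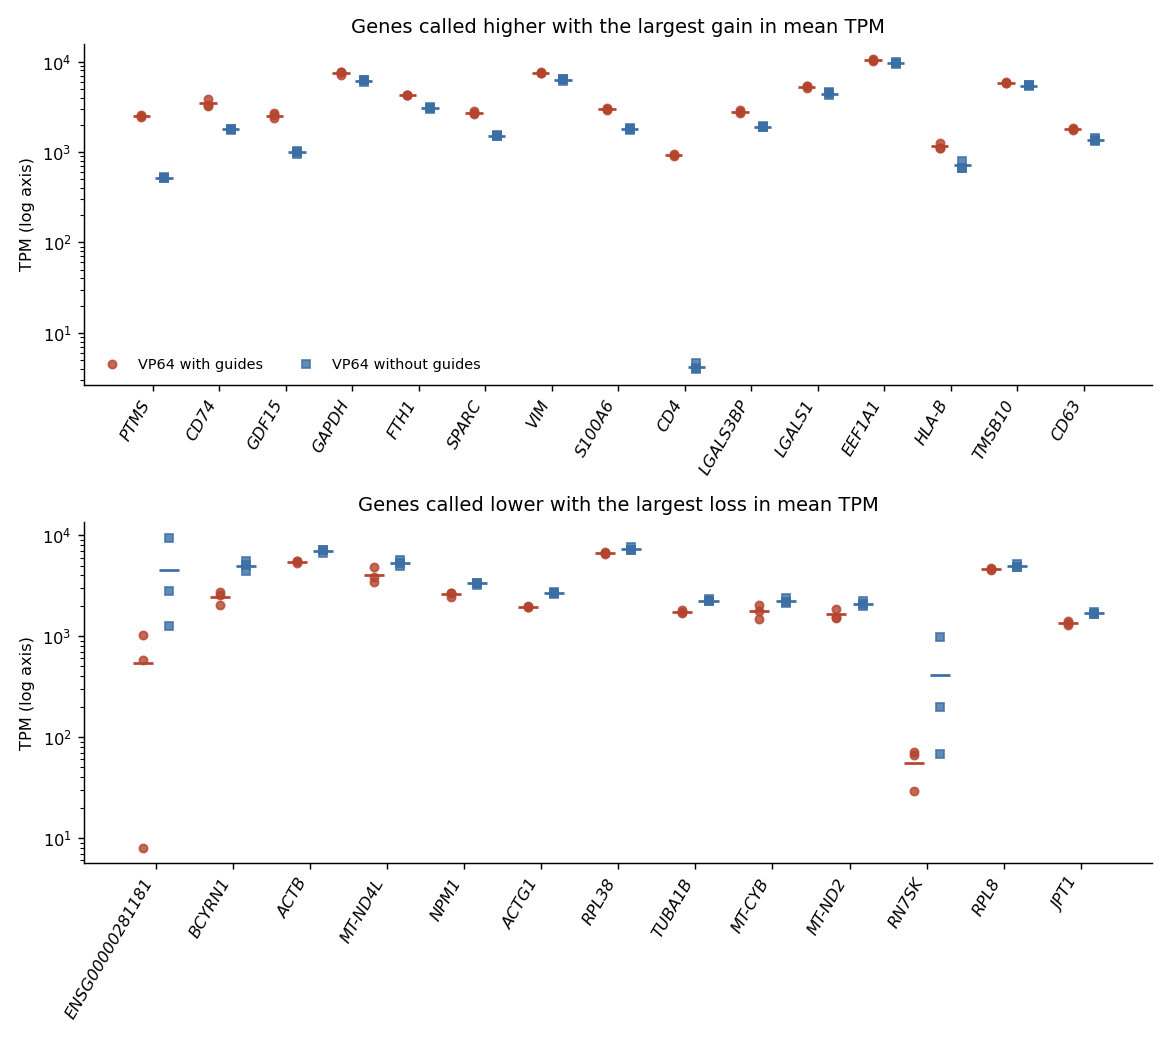
TPM on a log axis in each library for the genes with the largest gain (top) and loss (bottom) in mean TPM among genes called; circles are the 3 libraries with guides, squares the 3 without, and lines the means. CD4 stands alone in its fold, while the other genes of the upper panel differ by far less; RMRP is left out of the lower panel because 1 library was at 0, and not every gene of the sets is drawn.

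Several of these losses rested on single libraries, wholly or in part. ENSG00000281181 had 576, 8.02 and 1024 TPM with guides, against 1248, 9425 and 2807 TPM without. RN7SK, the RNA that holds the elongation factor P-TEFb inactive, had 29.3, 70.9 and 66.9 TPM with guides, against 67.7, 984 and 197 TPM without. Both calls were lost without replicate B of the line without guides (-1.91, adjusted p = 0.0777, and -1.19, adjusted p = 0.245). RMRP, the RNA of RNase MRP, had 0, 39.9 and 30.1 TPM with guides, against 83.5, 1963 and 356 TPM without. Its log2 fold change shrank to -3.12 without that same replicate B, and it was still called (edgeR adjusted p = 0.0269). The calls of MT-ND4L, MT-CYB, RPL38 and RPL8 were lost when some single libraries of either line were left out, with adjusted p values between 0.0504 and 0.278.

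Genes of different abundance moved in different ways. To take the levels from libraries other than those compared, they were also read in the line without an activation domain. This choice was made after seeing the data. Of 2164 tested genes under 1 TPM there, 228 were called higher and 84 lower with guides, and 162 and 49 of these passed 2-fold. Of 1541 genes at 100 TPM or more, 395 were higher and 565 lower, but only 12 and 1 passed 2-fold. With levels from the line without guides itself, the class under 1 TPM had 179 genes higher and 39 lower by at least 2-fold, and the class at 100 TPM or more had 5 and 4. Among genes tested, rare ones had the large folds in either reading, and abundant genes had many small changes, downward more often than upward. Calls depend on depth, and a change in a rare gene must be larger to pass. The low-count filter used all 15 libraries. A rare gene could therefore enter a class only through a line where it was higher, so the classes are not independent of the comparison.

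**Figure D2:**
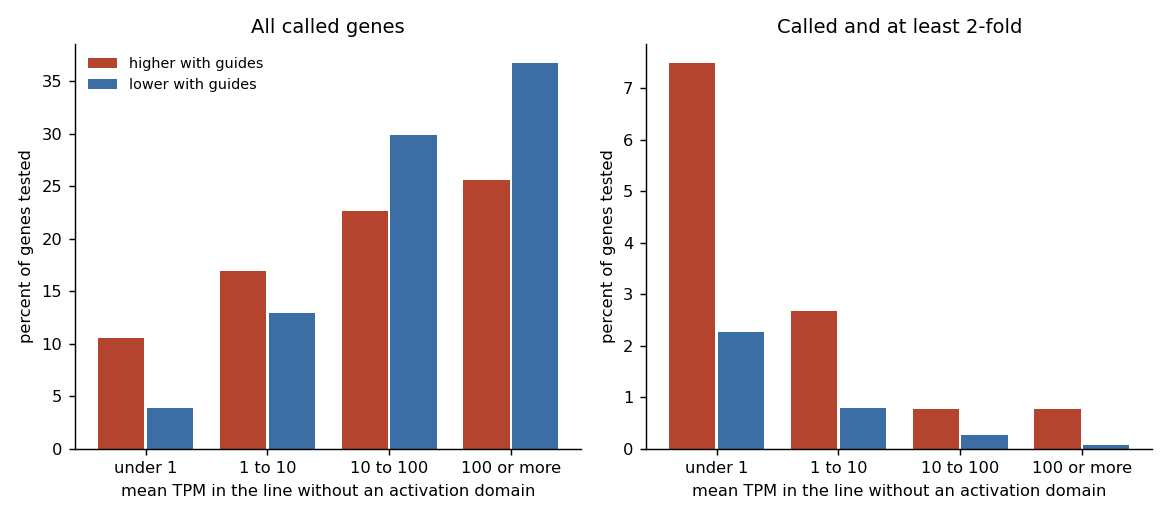
Percent of genes tested that were called higher (left bar of each pair) or lower (right bar) with guides, by mean TPM in the line without an activation domain, for all calls and for calls of at least 2-fold. The share of genes lower with guides climbs from 3.88% under 1 TPM to 36.7% at 100 TPM or more, while calls of at least 2-fold are most frequent under 1 TPM.

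By type, 2777 of 13049 protein-coding genes were higher and 3050 lower (21.3% and 23.4%, near the shares of all genes). Of 1267 long noncoding RNA genes 88 were higher and 94 lower, and of 538 pseudogenes 21 and 29. Families were grouped by their symbols. Among 49 cadherins and protocadherins, the adhesion proteins that hold like cells together, 20 were higher and 3 lower, with a median log2 fold change of 0.45 against 0.00 for all genes. PCDHB5 averaged 15.4 TPM with guides and 6.07 TPM without (1.30, SE 0.079, adjusted p = 3.19e-11). Protocadherin genes are close copies whose clusters share exons, so their counts can be split between members. Of 31 ABC transporters 15 were higher and 5 lower, and of 162 TMEM genes 55 and 19. Of 31 kinesins, the motors of microtubules and of the spindle, 4 were higher and 18 lower (median -0.22). Of 387 ZNF zinc finger genes 29 were higher and 80 lower (7.49% and 20.7%, against 19.3% and 21.3% over all genes). By chromosome, the share called higher ran from 12.8% on chromosome 13 to 24.7% on chromosome 11, leaving out chromosomes Y and M, and chromosome 12, which holds CD4, stood at 19.8%.

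The ER folding list, which holds chaperones and disulfide isomerases, had 23 of 38 tested members higher and 4 lower, with a median log2 fold change of 0.22. Its members summed to 7800 to 8250 TPM per library with guides and 6870 to 7060 TPM without. PDIA4, a disulfide isomerase, had 310, 339 and 327 TPM with guides, against 238, 240 and 251 TPM without (0.40, SE 0.040, adjusted p = 5.34e-08). MANF, a secreted ER stress protein, had 223, 230 and 215 TPM with guides, against 152, 157 and 166 TPM without (0.48, SE 0.045). HYOU1, a large ER chaperone, had 132, 139 and 127 TPM with guides, against 102, 105 and 97.3 TPM without (0.42, SE 0.039). No library with guides lay below any without in these genes. The line without an activation domain had 354 TPM of PDIA4, 266 TPM of MANF and 173 TPM of HYOU1, above both lines of the pair. These genes were thus higher than in the line without guides, but not higher than in the line without an activation domain. CRELD1, also of this list and called higher, went the other way, with 14.7 TPM there, below both lines of the pair. QSOX1, a sulfhydryl oxidase, fell to 301, 293 and 287 TPM with guides, against 345, 323 and 345 TPM without (-0.26, SE 0.038). The other 3 called lower were TMX2, TXNDC12 and TXNDC5, and the last of these lost its call under every alternative run except the DESeq2 Wald test. The 4 became 2 without some single libraries of either line, and the few lower members of the coat and stress-factor lists also varied that way.

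HSPA5, the main chaperone of the ER lumen and the protein that holds the stress sensors inactive, had 619, 668 and 636 TPM with guides, against 381, 377 and 393 TPM without (0.72, SE 0.039, adjusted p = 5.75e-12). The line without an activation domain had 941 TPM, above both lines of the pair. Its promoter is shown because it holds the ER stress element (ERSE), the site through which the stress factors ATF6 and XBP1 are known to act: CCAAT, any 9 bases, then CCACG, searched on both strands. The sequence is chr9:125241294-125241593 on the minus strand of GRCh38.p14, from RefSeq, covering 250 bases before to 50 after the start, with the element in capitals.
HSPA5: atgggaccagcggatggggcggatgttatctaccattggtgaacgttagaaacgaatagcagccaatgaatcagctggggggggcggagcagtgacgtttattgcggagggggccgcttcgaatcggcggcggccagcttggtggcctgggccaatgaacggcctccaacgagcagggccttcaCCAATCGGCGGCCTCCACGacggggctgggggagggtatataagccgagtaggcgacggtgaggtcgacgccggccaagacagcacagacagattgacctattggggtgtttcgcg

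The element was rare, in 22 of 27305 promoters of the RefSeq table (0.0806%). Among 37 promoters of the folding list, which does not hold HSPA5, it was in 5 (13.5%), and among 24 promoters of the list of stress sensors and factors in 1 (4.17%). It was in none of 21 promoters of the list for ER-associated degradation. The first match in each of these 6 promoters is shown with up to 10 bases on each side, 5′ to 3′ on the gene's strand. In CALR, CRELD2 and ERO1B the element reads on the opposite strand.
HSP90B1: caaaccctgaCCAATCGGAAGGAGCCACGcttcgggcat
CALR: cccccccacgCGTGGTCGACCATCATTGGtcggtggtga
CANX: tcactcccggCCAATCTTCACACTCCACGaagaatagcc
CRELD2: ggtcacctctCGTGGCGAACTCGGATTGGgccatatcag
ERO1B: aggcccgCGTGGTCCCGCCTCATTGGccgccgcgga
XBP1: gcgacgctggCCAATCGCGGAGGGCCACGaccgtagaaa

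These windows lie at chr12:103930206-103930244 for HSP90B1, chr19:12938374-12938412 for CALR and chr5:179698768-179698806 for CANX, all on the plus strand. They lie at chr22:49918544-49918582 for CRELD2 on the plus strand, and at chr1:236282173-236282208 for ERO1B and chr22:28800593-28800631 for XBP1 on the minus strand. All 6 genes were called higher. HSP90B1, the ER form of HSP90, had 509, 551 and 548 TPM with guides, against 430, 435 and 440 TPM without (0.29, SE 0.034, adjusted p = 3.58e-07). CALR, the lectin chaperone calreticulin, had 1406, 1445 and 1375 TPM with guides, against 1152, 1156 and 1171 TPM without (0.27, SE 0.031). Both were separated between the groups, whereas the TPM values of CANX, the membrane-bound partner of calreticulin, overlapped (0.17, SE 0.026 by counts). XBP1 had 35.6, 34.3 and 38.8 TPM with guides, against 23.6, 21.8 and 26.1 TPM without (0.52, SE 0.063, adjusted p = 8.39e-07). The line without an activation domain had 36.1 TPM of XBP1, near the line with guides. Of all 22 promoters with the element, 15 belonged to tested genes, of which 10 were higher and none lower, with a median log2 fold change of 0.29. Besides those named, they were FICD, TMEM120A and TRIM5. ALG12, EIF2A, FRG2, SERP1 and ZNF17 were not called. A match is a description of these letters and not a bound site.

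A class built from protein ends alone, without expression, moved in the same direction. Of 53 genes whose coding sequence ends in 1 of 9 ER retrieval tetrapeptides, 45 were tested, and 22 were called higher and 3 lower (median 0.18). With KDEL and HDEL alone, 12 of 21 were higher and 1 lower. Many of these genes also stand in the folding list. RCN3, a calcium-binding chaperone of collagen, had the largest fold of the class, with 172, 173 and 163 TPM with guides, against 14.2, 13.99 and 13.9 TPM without (3.62, SE 0.061, adjusted p = 6.31e-21). Its 4 relatives of the CREC family of ER calcium-binding proteins moved far less. SDF4 had 266, 271 and 261 TPM with guides, against 233, 225 and 231 TPM without (0.20, SE 0.045). RCN1 (0.16, SE 0.037) and CALU (0.11, SE 0.030) were also called higher, and RCN2 was not (-0.00, SE 0.052, adjusted p = 0.991). With guides RCN3 thus came near the level of RCN1, at 180 to 196 TPM.

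**Figure D3:**
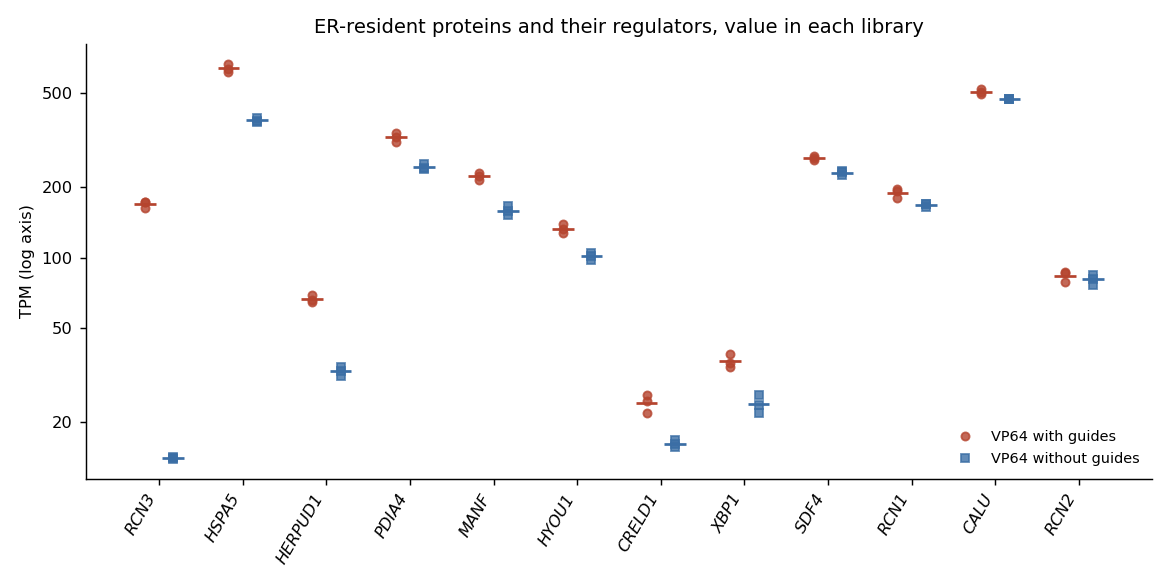
TPM on a log axis in each library for ER-resident proteins and regulators; circles are the 3 libraries with guides, squares the 3 without, and lines the means. RCN3 lies at 163 to 173 TPM with guides and at 13.9 to 14.2 TPM without, while no other gene differs by more than HERPUD1, and RCN2 overlaps.

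Downstream and upstream steps of the secretory route were less uniform. Of 25 tested genes of ER-associated degradation, 11 were higher and 3 lower (median 0.06). HERPUD1, a membrane scaffold of the degradation complex, had 64.98, 69.4 and 66.1 TPM with guides, against 31.5, 32.8 and 34.3 TPM without (0.999, SE 0.063, adjusted p = 5.9e-11). SYVN1, the ubiquitin ligase of that complex, was higher by 0.39 (SE 0.055). The line without an activation domain had 118.5 TPM of HERPUD1, above both lines of the pair, and 28.9 TPM of SYVN1, near the line with guides. OS9 and MAN1B1, also called higher, had 131 and 39.55 TPM there, below both lines of the pair. The count of 11 became 5 without replicate B of the line with guides, and 7 when the authors' effective lengths were used as an offset. Of 43 genes of the COPII and COPI vesicle coats, 20 were higher and 5 lower (median 0.10). KDELR3, a receptor that returns escaped ER proteins, had 23.07, 20.1 and 20.9 TPM with guides, against 14.9, 13.7 and 11.6 TPM without (0.67, SE 0.092). Of 32 N-glycosylation genes 9 were higher and 3 lower (28.1% and 9.38%, against 19.3% and 21.3% over all genes). The 3 became 1 without replicate A of the line without guides. MAGT1, a subunit of oligosaccharyltransferase, led the list at 83.0, 81.0 and 78.2 TPM with guides, against 38.7, 46.9 and 38.04 TPM without (0.92, SE 0.055).

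Genes of entry into the ER did not share the rise, with 3 of 25 higher and 7 lower (median -0.00). SSR3, a subunit of the translocon-associated complex, fell to 146, 152 and 161 TPM with guides, against 239, 273 and 260 TPM without (-0.78, SE 0.052, adjusted p = 1.36e-10). TRAM2, a translocon-associated membrane protein, fell by 0.80 on the log2 scale (SE 0.045). SSR4, of the same complex as SSR3, was higher by 0.26 (SE 0.066). The 7 called lower became 3 with the effective-length offset. The sensors and transcription factors of the stress response were mixed, with 11 of 24 higher and 4 lower (median 0.18). ATF6B, an ER-tethered factor, had 71.7, 81.1 and 77.6 TPM with guides, against 55.1, 45.1 and 52.8 TPM without (0.57, SE 0.049). ERN1, which encodes the sensor IRE1, fell to 7.44, 7.62 and 7.87 TPM with guides, against 11.3, 12.4 and 11.1 TPM without (-0.44, SE 0.072). PPP1R15A, a phosphatase subunit that restores translation, was lower by 0.39 on the log2 scale (a log2 fold change of -0.39, SE 0.049). ATF4, the factor of the integrated stress response, was not called (-0.10).

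Genes of amino acid supply, many of which ATF4 is known to regulate, were counted in 3 lists. Of 22 cytosolic aminoacyl-tRNA synthetases, which charge tRNAs, 4 were higher and 11 lower (median -0.10), and the 11 became 6 without replicate C of the line with guides. QARS1 had 259, 259 and 278 TPM with guides, against 202, 205 and 210 TPM without (0.30, SE 0.046). FARSB had 29.2, 28.9 and 29.4 TPM with guides, against 38.2, 37.4 and 37.9 TPM without (-0.39, SE 0.047). Of 24 amino acid transporters 7 were higher and 7 lower (29.2% each, against 19.3% and 21.3% over all genes). The cystine carrier SLC7A11 had 21.1, 26.3 and 25.2 TPM with guides, against 13.5, 15.1 and 14.2 TPM without (0.73, SE 0.079), and the cationic carrier SLC7A1 had 45.8, 48.6 and 47.5 TPM with guides, against 73.5, 72.0 and 73.1 TPM without (-0.64, SE 0.035). Both genes were separated between the groups, in opposite directions. Of 23 genes of serine and one-carbon metabolism 6 were higher and 4 lower (26.1% and 17.4%), with the mitochondrial enzyme MTHFD2 at -0.46 (SE 0.052).

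**Figure D4:**
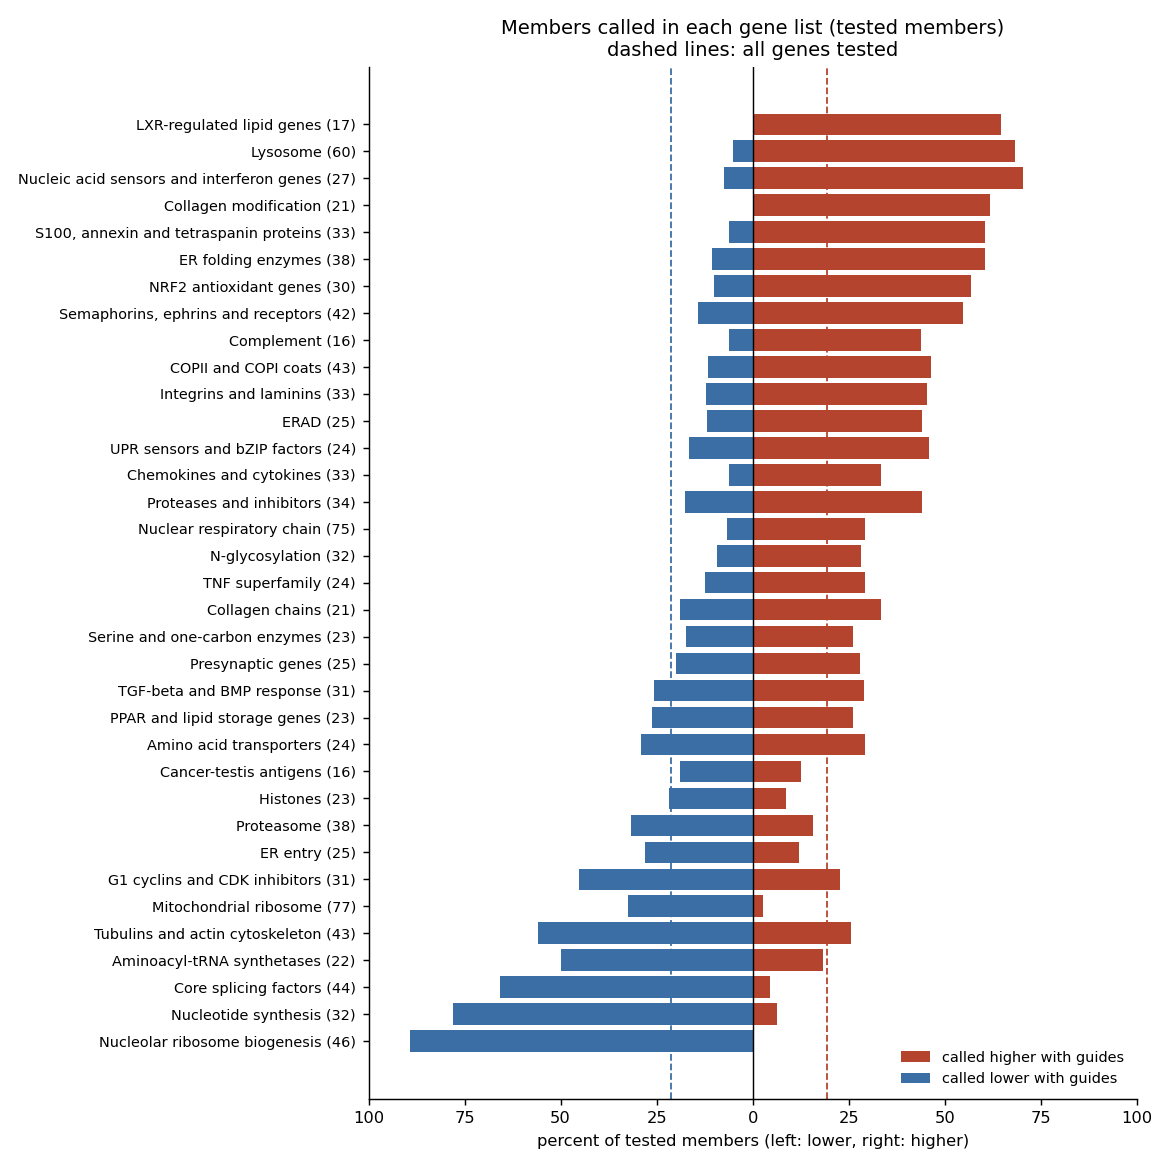
Percent of tested members called lower (left) or higher (right) with guides in each gene list with at least 15 tested members, whose number stands in brackets; dashed lines mark 19.3% higher and 21.3% lower over all genes tested. Lysosome, lipid and sensor lists lie at the top and nucleolar, nucleotide and splicing lists at the bottom.

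Lipid genes driven by the liver X receptors (LXR), nuclear receptors that sense oxysterols, were mostly called higher: 11 of 17 were higher and none lower, with a median of 0.51. SCD, the desaturase that makes oleate, had 98.9, 119 and 102 TPM with guides, against 26.0, 24.8 and 25.1 TPM without (2.06, SE 0.075, adjusted p = 1.42e-14). SREBF1, the factor that drives fatty acid synthesis, had 117, 135 and 104 TPM with guides, against 40.7, 38.2 and 48.8 TPM without (1.46, SE 0.087). ABCA1, a cholesterol exporter, had 19.01, 21.3 and 22.3 TPM with guides, against 14.8, 13.9 and 14.2 TPM without (0.52, SE 0.060). The groups did not overlap in these genes. The line without an activation domain had a mean of 127 TPM of SCD, above each library with guides. Its mean was 97.15 TPM for SREBF1, between the lines of the pair, and 12.84 TPM for ABCA1, below both. Genes of lipid storage and of the PPAR receptors were balanced, with 6 of 23 higher and 6 lower (26.1% each, against 19.3% and 21.3% over all genes). ACSL3, an acyl-CoA synthetase of lipid droplets, had 77.9, 87.9 and 84.0 TPM with guides, against 40.6, 47.1 and 40.6 TPM without (1.002, SE 0.058). CPT1A, the gate of fatty acid entry into mitochondria, had 8.32, 9.34 and 10.9 TPM with guides, against 13.3, 17.1 and 16.2 TPM without (-0.66, SE 0.069).

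The lysosome list was among the most uniform of those that rose, with 41 of 60 members higher and 3 lower (median 0.21). Its members summed to 8670 to 9010 TPM per library with guides, against 6950 to 7290 TPM without. PSAP, the precursor of the sphingolipid activator proteins, had 720, 823 and 761 TPM with guides, against 389, 379 and 391 TPM without (0.97, SE 0.050, adjusted p = 2.98e-12). CTSD, the aspartic protease cathepsin D, had 819, 886 and 787 TPM with guides, against 511, 481 and 519 TPM without (0.70, SE 0.053). NPC1, which exports cholesterol from the lysosome, had 119, 137 and 152 TPM with guides, against 83.2, 77.6 and 86.3 TPM without (0.71, SE 0.039). The groups did not overlap in any of these genes. TFE3, a factor that drives lysosomal genes, fell to 50.1, 49.9 and 49.2 TPM with guides, against 60.7, 55.7 and 58.9 TPM without (-0.24, SE 0.042), and TFEB was not called (-0.02).

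The site by which TFEB and TFE3 are known to act has the core TCACGTGA, which contains the E-box CACGTG. This and the 2 motifs named later were chosen after the lists' values had been seen. The core was in 7 of 39 lysosome promoters of the table (17.9%), against 283 of 27305 promoters (1.04%). Among those of members called higher it was in 6 of 27 and among those not called in 1 of 9. The first match in each of the 6 is shown in capitals.
GAA: ggaggccgcgTCACGTGAcccaccgcgg
CTSA: gcgccggagtTCACGTGActcgtacaca
LAMP1: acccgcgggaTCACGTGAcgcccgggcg
MCOLN1: ccagaggcggTCACGTGAggggctctgg
ATP6V0D1: ccccttatggTCACGTGAggcgcttgcg
ATP6V1G1: cgctgtgcggTCACGTGAcaacgggggc

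They lie at chr17:80101494-80101521 (GAA), chr20:45891299-45891326 (CTSA), chr13:113297200-113297227 (LAMP1), chr19:7522572-7522599 (MCOLN1) and chr9:114587700-114587727 (ATP6V1G1) on the plus strand, and at chr16:67481200-67481227 (ATP6V0D1) on the minus strand. MCOLN1, a calcium channel of the lysosomal membrane, had 28.2, 26.9 and 27.8 TPM with guides, against 24.4, 25.4 and 27.8 TPM without (0.18, SE 0.069). CTSA, which protects sialidase and beta-galactosidase, had 148, 161 and 159 TPM with guides, against 104, 96.5 and 95.4 TPM without (0.63, SE 0.049). The groups were separated in CTSA and overlapped in MCOLN1, and GAA, acid alpha-glucosidase, was also called higher. LAMP1, the main lysosomal membrane glycoprotein, was higher by only 0.17, and the proton pump subunits ATP6V0D1 and ATP6V1G1 by 0.17 and 0.10.

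Antioxidant and iron genes of the NRF2 list rose in 17 of 30 cases and fell in 3 (median 0.25). NQO1, a quinone reductase, had 895, 1027 and 921 TPM with guides, against 659, 641 and 649 TPM without (0.53, SE 0.040). Its groups did not overlap. SRXN1, which repairs peroxiredoxins, was lower by 0.36 (a log2 fold change of -0.36, SE 0.038), and GCLM, of glutathione synthesis, stood at -0.43 (SE 0.058). Of 5 tested metallothionein-related genes, MT1X had 310, 413 and 339 TPM with guides, against 247, 224 and 238 TPM without (0.60, SE 0.082). Metallothionein genes are close copies that can share reads.

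Innate immunity genes of nucleic acid sensing and interferon signalling were examined as their own group, which was not kept free of interferon-induced genes. Of 27 tested sensors, adaptors, receptors and factors of nucleic acid and interferon signalling, 19 were higher and 2 lower (median 0.25). IFIH1, a sensor of double-stranded RNA, had 8.84, 9.61 and 8.86 TPM with guides, against 4.63, 4 and 3.92 TPM without (1.16, SE 0.11, adjusted p = 2.18e-08). STING1, the adaptor of cytosolic DNA sensing, had 38.7, 46.1 and 42.4 TPM with guides, against 24.5, 23.6 and 26.7 TPM without (0.86, SE 0.076). IFNGR2, a chain of the interferon gamma receptor, had 93.4, 97.7 and 94.1 TPM with guides, against 48.3, 47.2 and 46.9 TPM without (0.97, SE 0.055). The groups were separated in each. CGAS, the DNA sensor upstream of STING1, had 14.3, 13.7 and 15.7 TPM with guides, against 17.03, 17.6 and 16.1 TPM without (-0.24, SE 0.065), and its call was lost without replicate B of the line with guides (adjusted p = 0.0539). The core of the interferon response element, GAAA, any 2 bases, then GAAA on either strand, was in 8 of 25 promoters of this list (32.0%) and in 3.65% of all promoters. It was in 4 of 15 promoters of members called higher and in 1 of 4 of members not called. The remaining matches were in IFNL1, IFNL2 and IFNL3, which were not tested.

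Complement had 7 of 16 tested genes higher and 1 lower (median 0.36), and 13 further members were too low to test. C1R, a protease of the first complement component, had 27.0, 31.5 and 31.0 TPM with guides, against 18.8, 19.6 and 18.9 TPM without (0.60, SE 0.072). Its libraries with guides all lay above those without. Of 33 chemokine, cytokine and growth factor genes 11 were higher and 2 lower (median 0.09). IL24, a cytokine first found in melanoma cells, was the most abundant of those named, with 610, 646 and 585 TPM with guides, against 406, 379 and 401 TPM without (0.64, SE 0.049). VEGFA, the growth factor of blood vessels, had 63.4, 66.0 and 63.0 TPM with guides, against 39.4, 37.6 and 36.8 TPM without (0.75, SE 0.048). IL11 had 75.1, 63.6 and 75.04 TPM with guides, against 110, 99.8 and 106 TPM without (-0.62, SE 0.068). Of 24 genes of the TNF superfamily 7 were higher and 3 lower (29.2% and 12.5%, against 19.3% and 21.3% over all genes). NGFR, a neural crest receptor, had 82.7, 95.6 and 84.6 TPM with guides, against 54.1, 47.5 and 48.2 TPM without (0.80, SE 0.081), and TNFRSF12A had 781, 739 and 763 TPM with guides, against 976, 913 and 928 TPM without (-0.31, SE 0.041).

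**Figure D5:**
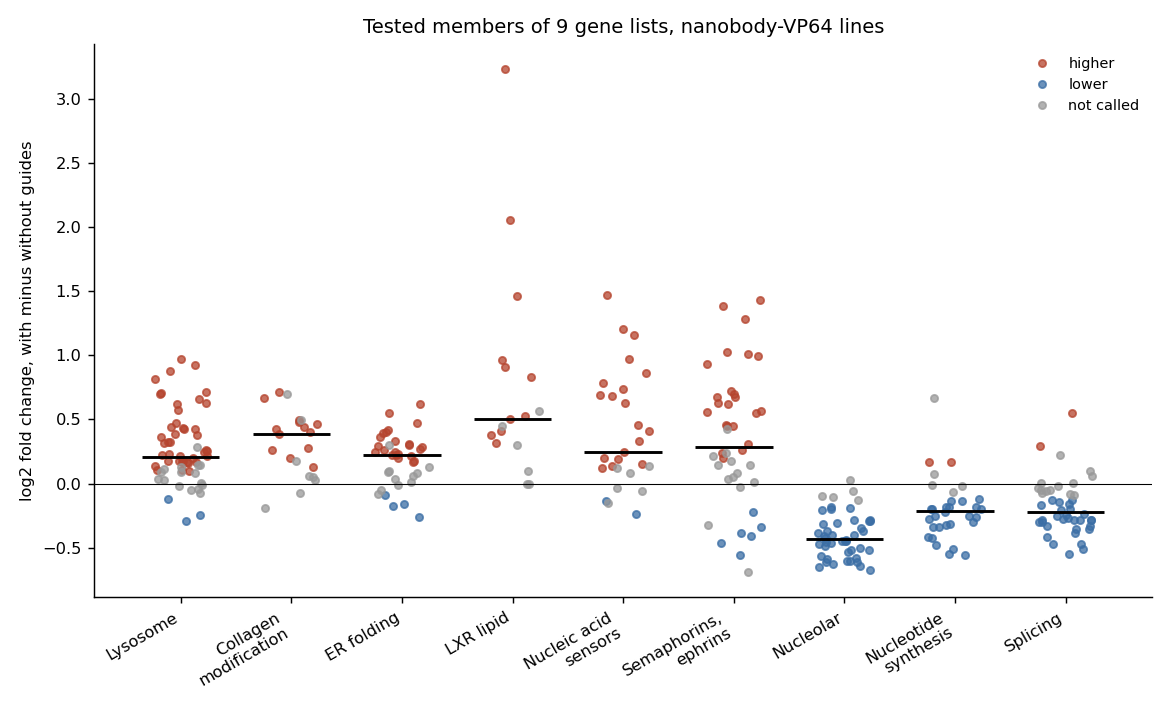
Log2 fold change (with minus without guides) of every tested member of 9 gene lists; points are genes, coloured by call, and black lines are list medians. The nucleolar median lies at -0.43 with no member called higher, and the LXR lipid median at 0.51 with none called lower.

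Enzymes that modify collagen rose in 13 of 21 cases and fell in none (median 0.39). PLOD1, a lysyl hydroxylase, had 535, 569 and 549 TPM with guides, against 348, 330 and 348 TPM without (0.67, SE 0.039, adjusted p = 2.27e-11). LOXL2, a lysyl oxidase that cross-links collagen, had 410, 424 and 409 TPM with guides, against 251, 248 and 248 TPM without (0.72, SE 0.042). The groups did not overlap in either. Collagen chains were more mixed, with 7 of 21 higher and 4 lower (median 0.13). COL6A1 had 123, 131 and 125 TPM with guides, against 61.5, 62.5 and 64.1 TPM without (0.96, SE 0.059). COL12A1 had 23.2, 25.3 and 31.6 TPM with guides, against 49.8, 50.5 and 49.3 TPM without (-0.93, SE 0.068). COL6A3 was called lower by counts (-0.71) but not with the effective-length offset.

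Of 34 matrix proteases and their inhibitors 15 were higher and 6 lower (44.1% and 17.6%, against 19.3% and 21.3% over all genes). TIMP3, an inhibitor of metalloproteinases, had 199, 253 and 218 TPM with guides, against 51.4, 46.9 and 49.9 TPM without (2.16, SE 0.10, adjusted p = 7.24e-13). MMP14, a membrane-bound metalloproteinase, had 410, 433 and 404 TPM with guides, against 226, 228 and 238 TPM without (0.83, SE 0.045). The protease and the inhibitor were thus both higher. The line without an activation domain had 235 TPM of TIMP3, close to the line with guides. ADAMTS1, a secreted protease, had 4.11, 3.60 and 3.35 TPM with guides, against 8.28, 8.47 and 8.52 TPM without (-1.20, SE 0.097).

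Of 33 integrin, laminin and partner genes 15 were higher and 4 lower (45.5% and 12.1%, against 19.3% and 21.3% over all genes). With the effective-length offset 8 were higher. ITGB3, the beta chain of the vitronectin receptor, had 62.3, 79.7 and 71.7 TPM with guides, against 25.5, 24.2 and 23.8 TPM without (1.53, SE 0.10). Of 42 semaphorins, ephrins and their receptors, which steer axons and migrating cells, 23 were higher and 6 lower (median 0.28), and 11 were higher with that offset. SEMA3B, a secreted repellent, had 47.3, 55.5 and 49.6 TPM with guides, against 21.1, 22.2 and 19.2 TPM without (1.29, SE 0.085). NRP1, a coreceptor of semaphorins and of VEGFA, had 119, 142 and 135 TPM with guides, against 87.9, 93.2 and 84.8 TPM without (0.68, SE 0.046). EPHA2, an ephrin receptor, had 333, 338 and 339 TPM with guides, against 450, 430 and 417 TPM without (-0.34, SE 0.031). The groups did not overlap in these genes.

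Among S100, annexin and tetraspanin proteins 20 of 33 were higher and 2 lower (median 0.34). S100B, a calcium sensor of melanocytes and glia, had 154, 195 and 163 TPM with guides, against 57.2, 50.1 and 57.0 TPM without (1.65, SE 0.12). ANXA1 had 720, 783 and 790 TPM with guides, against 550, 544 and 535 TPM without (0.48, SE 0.037), while ANXA2 had 2237, 2186 and 2234 TPM with guides, against 2396, 2368 and 2378 TPM without (-0.11, SE 0.029). Presynaptic genes were 7 higher and 5 lower of 25, near the 19.3% and 21.3% of all genes, and the 7 became 4 with the effective-length offset or without replicate B of the line with guides. The active-zone protein PCLO had 14.4, 11.9 and 15.3 TPM with guides, against 26.5, 27.0 and 27.2 TPM without (-0.89, SE 0.075). Of 31 genes of the TGF-beta and BMP response 9 were higher and 8 lower. LTBP3, which anchors latent TGF-beta in the matrix, had 130, 139 and 139 TPM with guides, against 58.4, 62.3 and 59.0 TPM without (1.23, SE 0.070). SMURF2, a ubiquitin ligase of the receptor, had 62.0, 63.7 and 69.9 TPM with guides, against 80.7, 88.3 and 90.0 TPM without (-0.41, SE 0.045).

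In nucleolar ribosome biogenesis 41 of 46 genes were lower and none higher, with a median of -0.43, and none of them reached 2-fold. The list summed to 5820 to 6210 TPM per library with guides, against 7560 to 7780 TPM without. In bulk RNA, fewer cells that express a set and less of its RNA per cell cannot be told apart. NOLC1, a scaffold of the nucleolus, had 52.4, 48.6 and 51.9 TPM with guides, against 77.1, 77.0 and 77.5 TPM without (-0.61, SE 0.045, adjusted p = 6.45e-10). NOP16 had 64.5, 66.4 and 69.3 TPM with guides, against 92.6, 103 and 94.2 TPM without (-0.63, SE 0.051). The groups were separated in both. The E-box CACGTG, bound by MYC and its relatives, was in 13 of 39 promoters of this list (33.3%), against 7.43% of all promoters. It was in 11 of 34 promoters of members called lower and in 2 of 5 of those not called.

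Nucleotide synthesis had 25 of 32 genes lower and 2 higher (median -0.21). UMPS, which completes uridine monophosphate, had 23.5, 23.7 and 24.1 TPM with guides, against 34.7, 35.4 and 36.4 TPM without (-0.55, SE 0.065). PRPS1, which makes the ribose donor, had 45.5, 47.8 and 46.0 TPM with guides, against 63.5, 59.8 and 59.9 TPM without (-0.48, SE 0.055). Core splicing factors were lower in 29 of 44 cases and higher in 2 (median -0.22). PRPF4, of the U4/U6 particle, had 55.7, 50.5 and 55.1 TPM with guides, against 78.6, 75.3 and 73.7 TPM without (-0.51, SE 0.055). CLK1, a kinase of splicing factors, had 20.4, 20.4 and 18.4 TPM with guides, against 9.47, 11.8 and 12.9 TPM without (0.55, SE 0.088). CLK4, a related kinase, was the other gene called higher (0.29, SE 0.092).

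Among 31 genes of G1 control 7 were higher and 14 lower (median -0.13). CDKN1A, the inhibitor p21, had 619, 600 and 600 TPM with guides, against 487, 460 and 466 TPM without (0.36, SE 0.045). E2F2, an activator of S-phase genes, had 3.84, 4.24 and 4.39 TPM with guides, against 8.20, 8.73 and 7.56 TPM without (-0.92, SE 0.084). Inhibitor and activator were separated between the groups in opposite directions. Of 23 histone genes 2 were higher and 5 lower (8.7% and 21.7%, against 19.3% and 21.3% over all genes), so the share lower was near that of all genes. H2AZ1, a replacement histone, had 884, 852 and 878 TPM with guides, against 1087, 1037 and 1066 TPM without (-0.29, SE 0.038).

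Nuclear and mitochondrial genes of the mitochondrion were counted apart. Of 15 tested genes of the mitochondrial genome none was higher and 4 lower (median -0.19), or 26.7% lower against 21.3% over all genes. Some of these calls were lost as given above. Of 77 mitochondrial ribosomal proteins 2 were higher and 25 lower (median -0.08), with MRPL3 at 112, 104 and 108 TPM with guides, against 142, 139 and 141 TPM without (-0.38, SE 0.050). Of 75 nuclear genes of the respiratory chain 22 were higher and 5 lower (median 0.07), with the oxidase subunit COX5B at 276, 285 and 259 TPM with guides, against 215, 196 and 207 TPM without (0.41, SE 0.056). The proteasome had 6 of 38 genes higher and 12 lower (15.8% and 31.6%, against 19.3% and 21.3% over all genes). The 12 became 6 or 7 without replicate A of the line without guides or replicate C of the line with guides. PSMB9, a subunit of the immunoproteasome, had 92.7, 96.1 and 83.2 TPM with guides, against 56.7, 57.6 and 53.2 TPM without (0.69, SE 0.078). PSMD12, of the regulatory cap, had 178, 195 and 176 TPM with guides, against 241, 229 and 234 TPM without (-0.33, SE 0.052).

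Tubulins and actin genes were 11 higher and 24 lower of 43 (25.6% and 55.8%, against 19.3% and 21.3% over all genes), and the isotypes differed. TUBB2A had 179, 179 and 177 TPM with guides, against 105, 104 and 109 TPM without (0.75, SE 0.042), while TUBA1B had 1810, 1719 and 1701 TPM with guides, against 2312, 2203 and 2235 TPM without (-0.38, SE 0.040). Isotypes are close copies, and reads can be split between them. MYH9, the heavy chain of nonmuscle myosin, had 145, 136 and 150 TPM with guides, against 210, 199 and 205 TPM without (-0.53, SE 0.049). Among melanocyte identity genes 9 of 12 were higher and none lower (median 0.69), a list that shares S100B and S100A1 with the S100 list and also holds the MHC class II genes CD74 and HLA-DRA, both among the 9. ERBB3, a neuregulin receptor, had 12.3, 17.9 and 12.9 TPM with guides, against 6.12, 6.45 and 4.52 TPM without (1.59, SE 0.11). TYR, the enzyme of melanin synthesis, had 4.77, 4.87 and 5.59 TPM with guides, against 3.38, 2.74 and 2.94 TPM without (0.66, SE 0.15). MITF, PAX3 and DCT were not called. Of 16 cancer-testis antigens 2 were higher and 3 lower, or 12.5% and 18.8%.

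Markers of other cell types were summed by list. T cell markers summed to 1.05 to 1.89 TPM with guides and 1.59 to 2.71 TPM without, fibroblast and endothelial markers to 2.02 to 3.33 TPM and 1.59 to 2.39 TPM, and myeloid markers to 10.7 to 14.4 TPM and 6.76 to 14.4 TPM. Epithelial markers summed to 63.0 to 79.6 TPM with guides and 64.1 to 72.8 TPM without, most of it the keratin KRT8. None of the 5 tested was called (median 0.02), nor were the tested markers of T cells, fibroblasts or endothelium. The myeloid gene LYZ was called (1.385, SE 0.44, adjusted p = 0.0141), at 1.25, 1.72 and 1.03 TPM with guides, against 0.30, 1.32 and 0.45 TPM without. Its groups overlapped, and the call was lost without any 1 of 3 libraries.

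Genes that ranked 11th to 25th by fold in each direction were taken among called genes with a symbol, a mean of at least 1 CPM and no overlap of CPM between the groups. Higher ones included a transcription factor, secreted proteins and lipid enzymes. DDIT4, an inhibitor of mTORC1, had 172, 188 and 167 TPM with guides, against 42.8, 40.3 and 39.2 TPM without (2.10, SE 0.070, adjusted p = 2.6e-15). ST6GALNAC2, a sialyltransferase, had 57.2, 74.9 and 59.3 TPM with guides, against 20.4, 14.3 and 15.57 TPM without (2.00, SE 0.13). PTGES, which makes prostaglandin E2, had 3.06, 4.57 and 4.05 TPM with guides, against 0.75, 1.01 and 0.69 TPM without (2.24, SE 0.23). TPM was separated between the groups in all of these, which the rule had already required of CPM. TFCP2L1, a transcription factor of epithelia and stem cells, had 1.94, 1.97 and 2.00 TPM with guides, against 0.40, 1.11 and 0.50 TPM without (2.21, SE 0.12). The line without an activation domain had 142 TPM of DDIT4, below the line with guides but nearer to it than to the line without guides. It had 22.5 TPM of ST6GALNAC2, near the line without guides. PCDHB11, KIF26B, RDH5, C1QTNF1, GJB1 and FAXDC2 made up the rest of the set with log2 fold changes of 2.02 to 2.46. Their levels were low, with mean TPM from 0.23 (KIF26B) to 7.69 (RDH5) with guides and from 0.067 (KIF26B) to 1.67 (RDH5) without. TPT1-AS1 stood at 2.00, and its reads cannot be told from those of its sense partner without strand. PROX1 was higher by counts (2.13) but not with the effective-length offset (0.16, adjusted p = 0.812), and its TPM values overlapped.

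Lower ones in these ranks held enzymes, receptors and a ligand. AOX1, aldehyde oxidase, had 20.9, 15.7 and 18.4 TPM with guides, against 46.9, 47.8 and 50.8 TPM without (-1.43, SE 0.065, adjusted p = 4.13e-13). MARCHF4, a membrane ubiquitin ligase, had 20.6, 18.3 and 19.5 TPM with guides, against 48.7, 51.3 and 52.8 TPM without (-1.41, SE 0.068). EDN1, the peptide endothelin 1, had 7.74, 6.05 and 7.40 TPM with guides, against 19.1, 15.99 and 19.8 TPM without (-1.39, SE 0.16). S1PR1, a receptor for sphingosine 1-phosphate, had 5.09, 3.67 and 4.65 TPM with guides, against 10.4, 11.2 and 11.5 TPM without (-1.36, SE 0.12). All of these were separated in TPM, as the rule for these ranks had required of CPM. KISS1, the metastasis suppressor kisspeptin, had 2.31, 1.93 and 2.38 TPM with guides, against 5.49, 4.81 and 7.29 TPM without (-1.40, SE 0.27), and 23.02 TPM in the line without an activation domain. GALNTL6, AOC2, PLCL1, UCA1, ZNF699, SLC4A4 and DSCAM had log2 fold changes between -1.70 and -1.39. These too were at low levels, with mean TPM from 0.13 (PLCL1) to 3.72 (UCA1) with guides and from 0.383 (PLCL1) to 9.21 (UCA1) without. KRTAP4-8 was at -1.603 and at -2.44 without replicate A of the line with guides. ENSG00000279809 lost its call without 4 of the 6 libraries in turn, and INKA2 lost its call without 4 of the 6 libraries in turn, with DESeq2 (adjusted p = 0.259) and with the effective-length offset (-0.24). Its mean TPM ran against the counts, at 1.27 with guides and 0.987 without.

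Very few genes went from silence to expression. Only 5 genes were under 0.1 TPM in every library without guides and at 1 TPM or more in every library with guides, and 2 showed the opposite. The 5 became 11 at a level of 0.5 TPM and 2 at a level of 2 TPM. Of the 5 only RPS20P9, a ribosomal protein pseudogene, had enough counts to be tested, at 2, 5 and 14 counts with guides against 0 in each library without, and reads of its parent gene can fall on it. CD4 itself had reads without guides and did not meet the rule.

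Where the VP64 pair differed from the p65 pair was tested as the difference of the 2 guide effects, which share no library. Over all genes 0.956% passed. PTMS rose more with VP64 (2.10 in the VP64 pair, against 1.17 in the p65 pair; difference 0.94, SE 0.075, adjusted p = 3.94e-07). SCD (2.06, against 1.601; difference 0.46, adjusted p = 0.032) and HSPA5 (0.72, against 0.49; difference 0.24, adjusted p = 0.0354) also rose more with VP64. RCN3 rose less with VP64 (3.62, against 4.41; difference -0.79, SE 0.087, adjusted p = 1.56e-05), as did TFCP2L1 (2.21, against 3.83; difference -1.61, adjusted p = 1.45e-05). EDN1 was lower with VP64 (-1.39) and not called with p65 (-0.26), a difference of -1.13 (SE 0.22, adjusted p = 0.00783). For CD4 itself the difference did not pass (7.75, against 7.60; adjusted p = 0.854).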

How the data were processed

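RNA from 15 libraries of MelJuSo lines was sequenced by a service provider, per the labels' protocols. The authors deposited expected counts per gene from RSEM after STAR alignment to hg38, per the submitters' processing notes and the file headers. TPM values in the same deposited tables are RSEM's length-scaled abundances, and an alternative drew on the deposited effective gene lengths in bases (another unit). No source used here names tool versions or strandedness. Of the entries per table, 58721 gene IDs matched GENCODE 29, 58252 with a current symbol, and 92 spike-ins (0 to 7 counts) were dropped.

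Rounded counts were fitted in edgeR 4.0.16 (R 4.3.3) by quasi-likelihood over all 15 libraries with TMM, filterByExpr with a minimum count of 10, and Benjamini-Hochberg adjustment over 14961 genes at 0.05. Folds in the text are log2 fold changes of counts, with guides minus without, and levels are TPM. Alternatives were DESeq2 1.42.0, its size factors, other low-count filters, the 6 libraries alone, a replicate block, the effective-length offset, unrounded counts and leaving out each library.

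Results for a few named genes are not reported here, though counts include them. The members and the 42 gene lists were chosen with earlier results of these data known. The named genes were CD4, the 15 largest TPM changes per direction, ranks 11 to 25 by fold, genes switched on, up to 4 members per list and direction by smallest p, the CREC family, up to 10 genes of the retrieval class and markers. Genes named for a promoter motif or a family were chosen after their values were seen. The retrieval class was read from translated GENCODE 29 coding sequences, since no protein table was used here.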

Additional observations from a re-analysis of the deposited data

Results flagged for a closer look

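In 20 of 312 named genes the effect of the guides differed between the VP64 pair and the p65 pair by a test of the difference itself (edgeR quasi-likelihood, adjusted over all genes). Over all genes 0.956% passed. The named genes were chosen largely by their values in these VP64 libraries, so their count cannot be read against that share. Values are log2, VP64 pair minus p65 pair. In 6 of the 20 the difference was positive, among them PTMS at 0.94, SCD at 0.46, HSPA5 at 0.24, MT1X at 0.64 and SERPINE2 at 0.43. In 14 it was negative. The largest of these was -6.13 for RMRP, whose log2 fold change in the VP64 pair shrank to -3.12 without replicate B of the line without guides. The difference was not refitted without that library. The difference was -1.61 for TFCP2L1, -0.95 for TPT1-AS1, -1.13 for EDN1, -0.79 for RCN3, -0.55 for MAGT1 and -0.54 for IL11. For NPC1 it was -0.41, for TUBB2A -0.58, for ANXA1 -0.61, for S100A10 -0.51 and for ANXA2 -0.21. ANXA2 was lower in the VP64 pair (-0.11) and stood at 0.11 in the p65 pair.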

How the results depend on the processing

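Genes called higher numbered 2041 to 3061 under the alternatives to the reported 2889, and genes called lower 2138 to 3128 against 3185; leaving out single libraries gave 2426 to 2892 and 2636 to 2845. At 2-fold, the 353 higher ran from 262 to 437 (313 to 386 without single libraries). The 106 lower became 163 with no low-count filter and 62 when the filter was a mean of 1 CPM, and ran from 91 to 138 without single libraries. Different numbers of genes are tested under those filters. The CD4 log2 fold change stayed between 7.72 and 7.81. With the effective-length offset COL6A3 turned to 0.83 and DERL1 to 0.0725, neither past the threshold, and 36 of 312 named genes lost their call; the cause was not tested. Of the genes called, 109 (1.80%) had a mean TPM that moved against the count. The replicate letter did not pair the libraries: deviations of same-lettered libraries correlated at 0.037, -0.103 and -0.051. With the replicate block 2816 genes were higher and 3101 lower, 349 and 101 at 2-fold, and CD4 stood at 7.75. Without replicate B of the line without guides, which stood apart, the counts were 2653, 2636, 357 and 91. Depth of 15643705 to 19680595 counts limits what can be called among genes under 1 TPM.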
